A study of Mus musculus with 4 samples.

Results

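The genes described are the class I olfactory receptors of mouse chromosome 7, taken as every protein-coding gene named Olfr and a number whose start lies between 102.0 and 105.5 Mb of chromosome 7 on mm10. They number 124 of 21938 protein-coding genes, against 969 Olfr genes elsewhere. The measurement was the position of CTCF, mapped by ChIP-seq, the sequencing of DNA pulled down with an antibody to the protein, in frozen left cerebral cortex of female adult B6CASTF1/J mice aged 2 months. Pool I and pool J each combined 4 cortex biosamples and gave 2 technical libraries, all without treatment. Peak lists on mm10 merged both libraries of a pool, so neither library nor animal has a value of its own, and the parental alleles of the hybrid are not separated. No test between samples can therefore be given, and every interval covers the counting of peaks or genes only. The read depth and the treatment of reads that map to several places are unknown. CTCF binding is not expression, and the cortex label was not checked by expressed markers.

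Olfactory receptors are odorant receptors that span the membrane, and each olfactory sensory neuron expresses a single allele of a single receptor gene. Class I receptors, called fish-like, sit in a single array on mouse chromosome 7 that also holds the beta globin genes, while class II receptors are spread over many clusters. CTCF is a zinc finger protein that binds a long, directional motif, and with cohesin it holds the bases of chromatin loops. The cerebral cortex is not where these receptors serve smell.

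The 124 receptors ran from Olfr543 to Olfr692 over 2892.8 kb (chr7:102476579-105369355), with 62 on each strand. Their median length was 6.18 kb, and neighbouring genes lay a median of 8.47 kb apart. Likeness among the 124 was checked from proteins translated from the annotated coding sequences, by shared words of 4 residues. No class I reference protein was used, so the check cannot tell class from shared position in the array. For 121 of the 124 the most similar receptor was another of the 124, whereas that held for 2 of the 969 others. Olfr643 was nearest to Olfr49, Olfr657 to Olfr504 and Olfr658 to Olfr503. Olfr643, Olfr657 and Olfr658 each lie in the array but most resembled a receptor outside it. A further 32 protein-coding genes started within the span, among them Trim, beta globin (Hbb), Ubqln and Usp17l genes.

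CTCF was found within 1000 bp of a transcription start site (TSS) at 4 receptors in the list of peaks shared by both pools, here called the conservative list. The sequences at these summits are shown because they carry the promoter result. Each is 60 bases of GRCm38.p6, printed 5′ to 3′ on the strand of the motif, with capitals on the 20 bases that best matched a CTCF motif learned from the strongest peaks of other chromosomes.
Olfr658 upstream, chr7:104647309-104647368, minus strand: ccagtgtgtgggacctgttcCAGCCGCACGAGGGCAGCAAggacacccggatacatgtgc
Olfr557 upstream, chr7:102695553-102695612, plus strand: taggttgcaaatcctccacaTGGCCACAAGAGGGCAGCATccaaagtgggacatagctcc
Olfr543 coding exon, chr7:102477350-102477409, plus strand: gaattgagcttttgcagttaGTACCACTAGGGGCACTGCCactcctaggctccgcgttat
Olfr556 intron, chr7:102665504-102665563, plus strand: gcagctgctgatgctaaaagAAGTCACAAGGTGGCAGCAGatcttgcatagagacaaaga
The learned consensus was TGGCCACCAGGGGGCGCTAG. The Olfr557 site scored 24.11 against it, above the strict threshold of 20.53 that 0.1% of flanking windows passed. The Olfr556 site scored 12.13, above the standard threshold of 10.24 that 1% passed. The Olfr658 site, at 9.02, and the Olfr543 site, at -7.72, fell below it.

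A second set holds the nearest conservative summit outside the array on each side, and the strongest summits within it.
Proximal edge, Stim1 intron, chr7:102417607-102417666, minus strand: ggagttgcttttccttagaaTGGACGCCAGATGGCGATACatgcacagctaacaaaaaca
Between Olfr545 and Olfr547, first, chr7:102506995-102507054, plus strand: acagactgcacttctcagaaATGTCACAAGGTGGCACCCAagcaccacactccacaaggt
Between Olfr545 and Olfr547, second, chr7:102513249-102513308, plus strand: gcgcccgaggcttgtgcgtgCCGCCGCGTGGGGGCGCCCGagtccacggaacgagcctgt
Distal edge, beyond Olfr692, chr7:105412057-105412116, plus strand: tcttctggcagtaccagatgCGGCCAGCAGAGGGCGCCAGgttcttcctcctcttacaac
The proximal site, 58.93 kb beyond the array with Rrm1 between, matched the motif on the minus strand with a score of 15.74. The distal one, 42.71 kb beyond with Fam160a2 and Cnga4 between, matched on the plus strand with 26.06. These nearest motifs faced away from the receptors. At conservative sites farther along the distal flank, passing matches lay on both strands. The summits between Olfr545 and Olfr547 scored 10.23 and 8.62, and neither reached the threshold.

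Promoter binding was rare in the array. In the conservative list 4 of 124 receptors (3.23%, exact 95% binomial interval 0.886 to 8.05) carried such a promoter summit, beside 20.8% of all protein-coding genes. The 969 other Olfr genes had 4 (0.413%, 0.113 to 1.05). Those elsewhere on chromosome 7 had 0 of 112. Taking 3 counts as the limit that a count of 0 allows, that is a share of up to 2.68%, and the exact upper limit is 3.24%. Of the 124 receptors, the optimal list, made from the pooled reads, also gave 4, beside 23.8% of all genes. The pool I list gave 5 beside 37.4%, and the pool J list gave 3 beside 25.2%. The share in the array was thus below the background in each list, and Olfr556, Olfr557 and Olfr658 were in all 4.

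The 4 promoters differed in how much signal they carried. The signal value comes from the peak caller with no unit given, and for a conservative peak it is given in each pool and for both together. At Olfr557, on the plus strand, the summit lay 329 bp upstream of the TSS, with 341.4 in pool I, 193.1 in pool J and 530.8 for both. That was higher than 87.5% of conservative peaks. At Olfr556, also on the plus strand, the summit lay 632 bp downstream of the TSS in an intron, with 276.3 in pool I, 167.6 in pool J and 440.3 for both. These sites stood 30.05 kb apart, with Trim68 between them. Olfr658, on the minus strand, had the nearest summit of any receptor, 32 bp upstream of its TSS, with 129.1 in pool I, 50.9 in pool J and 182.5 for both. Olfr543, the first gene of the array, had its summit 529 bp downstream of a TSS, in its coding exon. Its values were 54.67 in pool I, 18.74 in pool J and 73.6 for both, in each case the lowest of the 27 conservative summits of the array. Its irreproducible discovery rate (IDR), an estimate of how much of the list down to that peak would not repeat, was 0.0487 against a threshold of 0.05, and the pool J list lacked it. Pool I was the higher at all 4 promoters. In the pool I list alone, Olfr691 had a summit 809 bp upstream of a TSS, in an intron of the gene, with a value of 25.66.

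The next nearest receptors were just beyond the window. Olfr649 lay 1293 bp from a conservative summit, Olfr633 1493 bp, Olfr554 1516 bp, Olfr655 1605 bp and Olfr675 2210 bp. With 500 bp the count of promoters fell to 2 (Olfr557 and Olfr658), while a fraction of 0.15 of all genes lay within 0.443 kb. With 2000 bp it was 8 (6.45%), beside 26.8% of all genes and 1.24% of other Olfr genes. The choice of start mattered here. Of the 124 receptors, 105 had several annotated transcripts, and 50 had every TSS upstream of the start codon. With the start codon in place of the TSS, Olfr543 was the single receptor within 1000 bp.

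Binding within the genes was also uncommon. In the conservative list 6 receptors (4.84%, 1.80 to 10.2) held a summit between their ends, beside 45.8% of all protein-coding genes and 13 of 969 other Olfr genes (1.34%). Receptor genes are short, and gene length was not matched in this comparison. Besides Olfr543 and Olfr556, they were Olfr78, Olfr560, Olfr649 and Olfr675. Olfr78 and Olfr560 overlap on the minus strand and shared a summit, which lay in annotated UTRs of these genes. Olfr78 is known outside the nose as a receptor for short-chain fatty acids. Its shared summit had 85.22 in pool I, 36.02 in pool J and 123.4 for both. The summit in the Olfr649 intron had 85.08 in pool I, 32.27 in pool J and 117.3 for both, and that in the 3' UTR of Olfr675 had 83.12, 27.85 and 110.2. These values all lay below the conservative median of 268.8. Olfr586 held a summit in its 3' UTR in the optimal list (106.0), in pool I (83.67) and in pool J (20.1), but not in the conservative list. The pool J list also placed a summit in Olfr545, where the other lists put it just outside the gene. The pool I list alone had the summit in an intron of Olfr691.

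**Figure D1:**
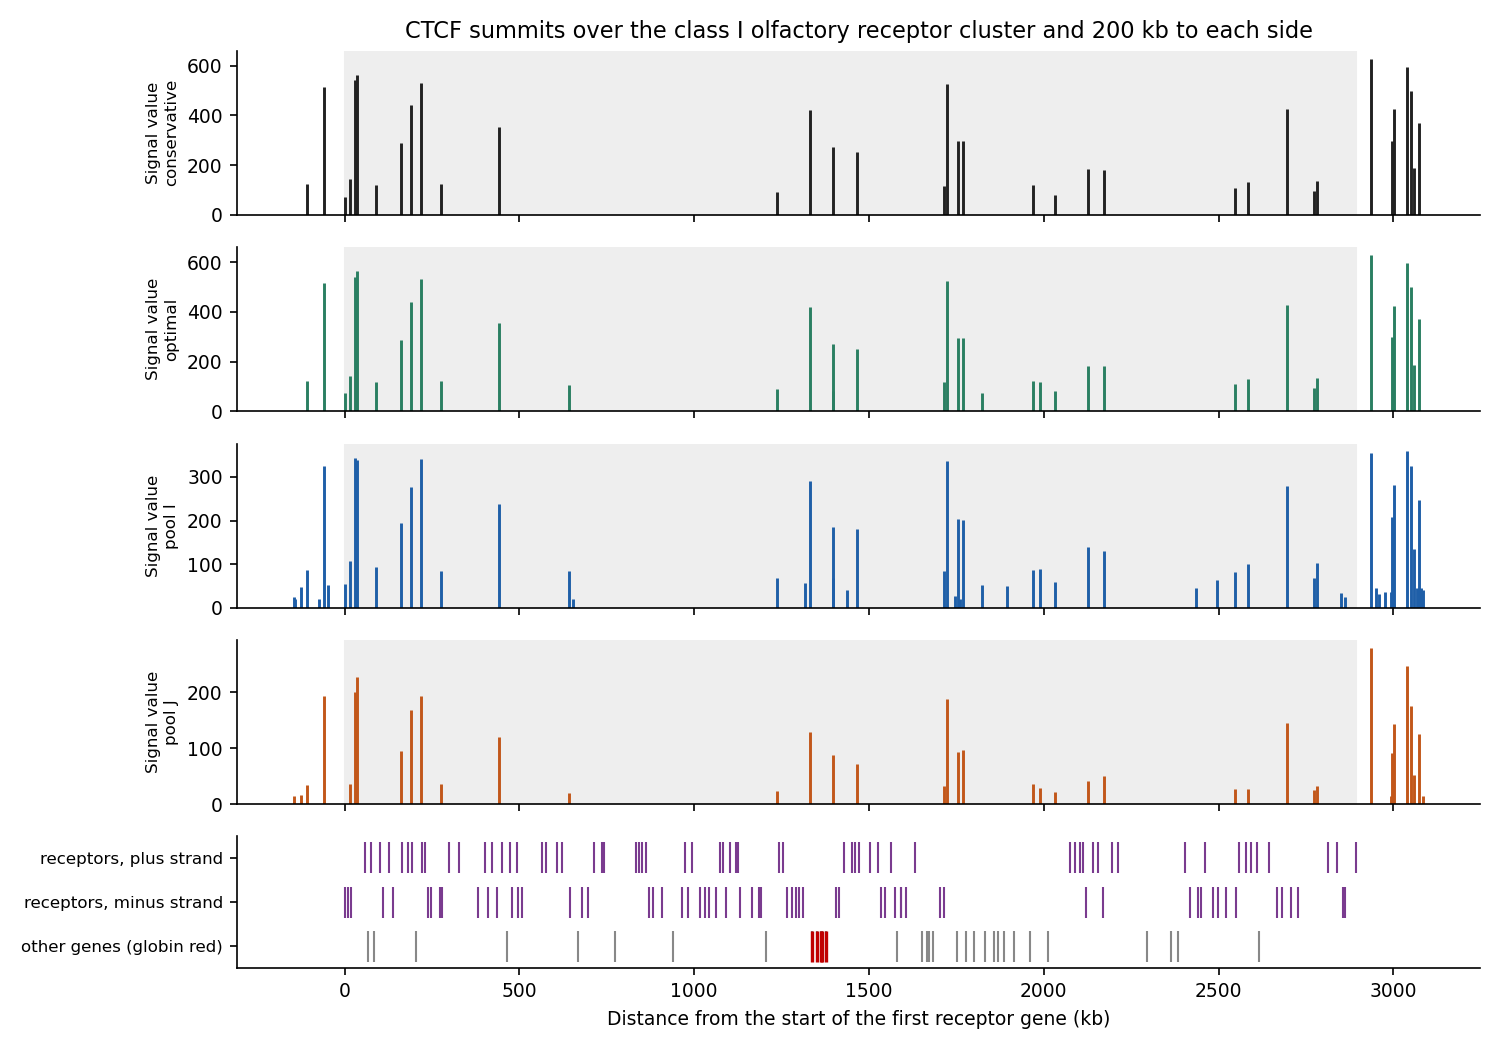
Signal value (peak caller's unit) of each CTCF summit against distance in kb from the start of the first receptor gene, with 1 row for each peak list. Ticks below mark receptors by strand and other protein-coding genes, with globin genes in red, and grey shading spans the 124 receptors. The conservative list leaves a gap of 792.4 kb, and the optimal, pool I and pool J lists have a summit within it.

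Over the whole span the conservative list placed 27 summits, or 9.33 per Mb (exact 95% Poisson interval 6.15 to 13.6). The rest of chromosome 7 had 20.8 per Mb and the autosomes 18.1 per Mb, so the density in the array was 0.515 of the autosomal one (0.339 to 0.749). Low density is not unusual in the genome. Of 816 autosomal tiles of the same length, 213 (26.1%) had 27 summits or fewer. The optimal list had 31 summits in the array (10.7 per Mb), the pool I list 41 (14.2) and the pool J list 28 (9.68). Over the autosomes these lists had 20.6, 33.4 and 21.4 per Mb, so the pool I list was the longest there too. Merged over lists, the summits of the array gave 41 sites, of which 25 were in all 4 lists and 10 in pool I alone. How sites divide among the lists was not counted over the genome.

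Base composition and repeats in the array also differed from those of the autosomes. The array had 39.4% G and C against 41.9% over the autosomes, 5.84 CpG dinucleotides per kb against 8.51, and 43.0% of bases in repeats against 33.5%. None of the 27 summits lay on a repeat base (0 of 27, where the limit of 3 counts is 11.1%), while 20.0% of autosomal summits did. Counting summits and bases outside repeats only, the ratio of densities was 0.750 (0.494 to 1.09), an interval that includes 1. This count left out 20.0% of autosomal summits but none of the array's, which by itself raises the ratio. The part of base composition or of repeats in the lower density was not tested.

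Among the receptor clusters, the array had one of the higher densities of CTCF summits, though several intervals overlapped. Of 8 other runs of at least 30 Olfr genes with gaps under 500 kb, the density ranged from 0 to 11.9 summits per Mb, with a median of 3.25. The cluster on chromosome 19, with 63 genes, was denser at 11.9 per Mb (7.72 to 17.6), an interval that overlaps that of the array. Lower clusters also overlapped it, on chromosome 17 (1.30 to 9.31), elsewhere on chromosome 7 (1.01 to 9.46) and on chromosome 10 (0.890 to 8.36). So did the cluster of 93 genes on chromosome 9 (1.39 to 6.35), and the intervals of the remaining clusters lay below that of the array. The largest, with 217 genes on chromosome 2, had 9 summits, or 1.81 per Mb (0.829 to 3.44). The 591 genes of these 8 clusters included 1 with a promoter summit.

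**Figure D2:**
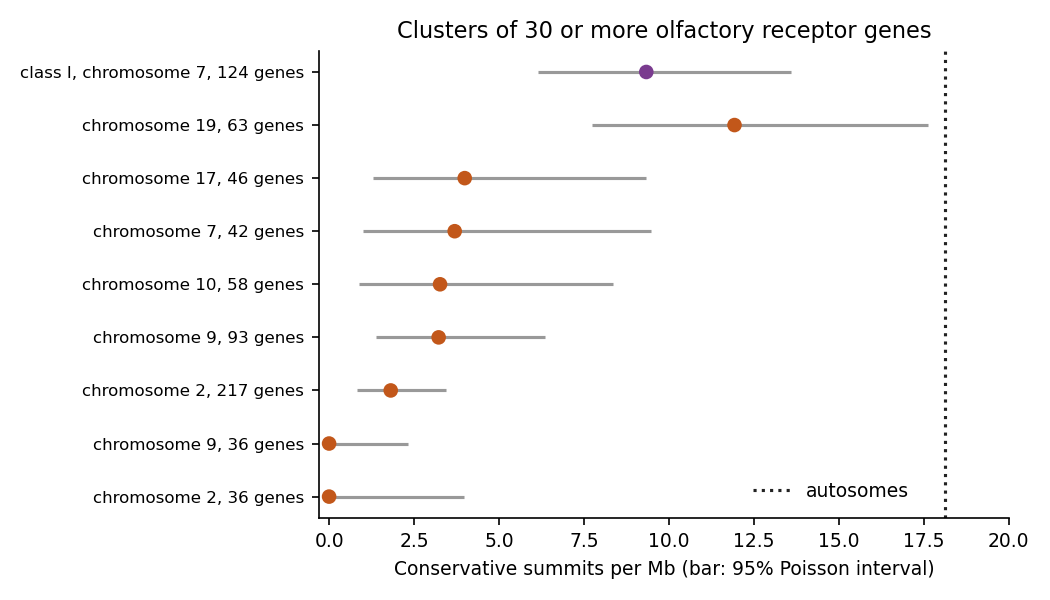
Conservative CTCF summits per Mb in each run of at least 30 olfactory receptor genes, labelled by chromosome and number of genes, with exact 95% Poisson intervals that cover counting only. The class I array (purple) is at 9.33 per Mb, below the cluster on chromosome 19 and left of the dotted autosomal line at 18.1 per Mb.

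Most binding in the array was between genes. Of the 27 conservative summits, 20 (74.1%) lay outside any protein-coding gene, in 57.6% of the span. Another 5 (18.5%) lay in a receptor gene, in 29.1% of the span, and 2 lay in introns of Trim6 and Trim30a. These shares rest on 27 summits and no interval was computed for them, so they show no preference for either place. The summits between genes had a median signal value of 261.9, and those in receptors 117.3. Over all 27 the median was 182.8, against 268.8 over the whole list. Of these, 12 were above that list median, 11 were in its lowest 25% and 1 was in its top 10%. That strongest summit, at 563.3, and one of 541.6 stood 6.24 kb apart between Olfr545 and Olfr547. The Olfr557 site was the third in order, and a site between Olfr649 and Olfr651 followed at 525.6.

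Distance put the receptors between other Olfr genes and the rest of the genome. The median distance from a TSS to the nearest conservative summit was 42.4 kb for the 124 receptors (quartiles 14.97 and 118.6), 108.2 kb for other Olfr genes and 8.71 kb for all protein-coding genes. A summit within 10 kb was found for 26 receptors (21.0%), for 7.84% of other Olfr genes and for 52.4% of all genes. Within 50 kb these shares were 55.6%, 30.8% and 83.5%. Every receptor had one within 400 kb, as had 90.2% of other Olfr genes. With the pool I list, the longest of the 4 in the array, the median for the receptors was 26.6 kb. Beside it stood 75.81 kb for other Olfr genes and 2.885 kb for all genes.

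**Figure D3:**
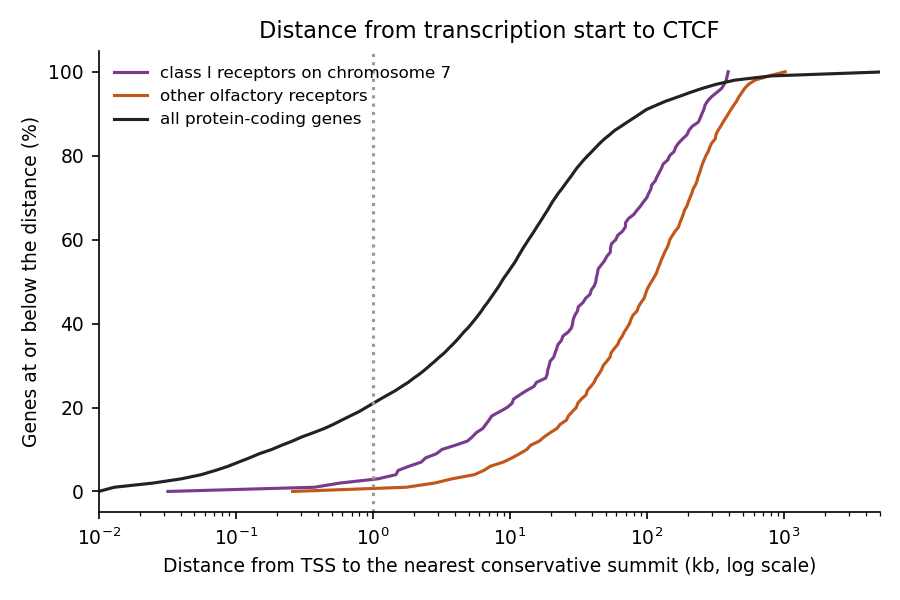
Share of genes (%) whose TSS lies at or below a given distance (kb, log scale) from the nearest conservative CTCF summit, with a dotted line at 1 kb. The curve of the 124 class I receptors runs between that of other olfactory receptors and that of all protein-coding genes up to 200 kb, with medians of 42.4, 108.2 and 8.71 kb.

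The receptors were not evenly spaced from CTCF. The longest stretch without a conservative summit ran 792.4 kb (chr7:102919824-103712213) and held 41 whole receptor genes (33.1%), from Olfr572 to Olfr624. The 3 farthest receptors lay in its middle, with Olfr597 at 391800 bp, Olfr596 at 385824 bp and Olfr598 at 383725 bp. The Olfr586 summit of the optimal, pool I and pool J lists divided that stretch, leaving at most 592.6 kb and 30 receptors, Olfr589 to Olfr624. The next stretches were 375.4 kb with 10 receptors, Olfr659 to Olfr672, and 248.6 kb with 12, Olfr633 to Olfr648. A stretch of 201.8 kb held no receptor but 7 other protein-coding genes, all Trim. Cut into 3 parts of equal length from Olfr543 onward, the array had 10, 8 and 9 summits with 49, 42 and 33 receptors. Of the 4 promoter summits, 3 were in the first part.

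**Figure D4:**
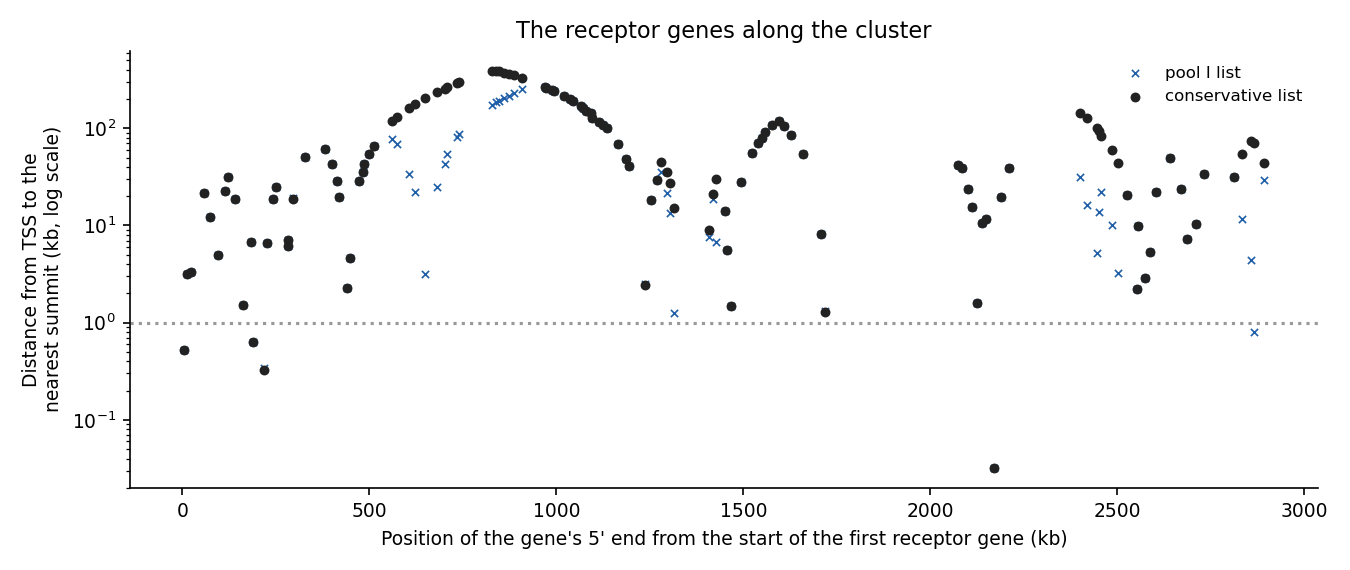
Distance from each receptor's nearest TSS to the nearest summit (kb, log scale) against the position of its 5' end in kb from the first receptor gene, for the conservative list (dots) and the pool I list (crosses), with a dotted line at 1 kb. Distances climb to 391.8 kb in the gap from Olfr572 to Olfr624 and reach 32 bp at Olfr658.

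At these sites the pools differed in level, as they did over the whole list. Pool I values were higher than pool J values at each of the 27 conservative summits, with a median log2 ratio of 1.29 against 1.09 over all 44672 conservative peaks (SD 0.39). The ratio depended on strength in the same way. Among peaks above the list median it was 0.96 in the array (n = 12) and 0.85 over all, and among the weaker ones 1.5 (n = 15) and 1.34. No summit of the array was over 1 log2 unit from the overall median, as were 210 of all conservative peaks (0.470%). The lowest deviation was -0.51 and the highest 0.83. The Olfr543 site and the one between Olfr549 and Olfr550 were the 2 conservative summits that the pool J list did not hold.

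**Figure D5:**
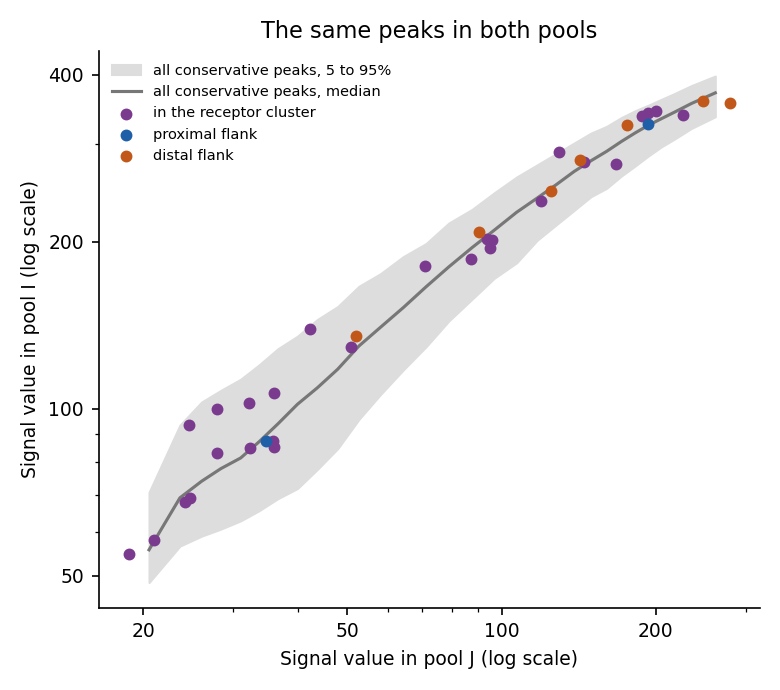
Signal value in pool I against pool J (both log scales, peak caller's unit) at conservative summits of the receptor array and of its flanks. The grey line and band give the median and the 5 to 95% range over all conservative peaks in bins of pool J value, and the 27 summits of the array follow the line with higher values in pool I throughout.

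The share of summits with a CTCF motif did not differ from that elsewhere beyond its counting interval, which was wide. A match within 50 bp of the summit was found at 15 of 27 (55.6%, 35.3 to 74.5), against 66.6% on the rest of chromosome 7. At the strict threshold the shares were 14.8% (4.19 to 33.7) and 14.4%. Forward matches numbered 8 and reverse ones 7. Of the 14 neighbouring pairs, 5 faced each other, 5 faced apart and 4 pointed the same way. The sequence itself held fewer matches, 33.5 per Mb against 64.9 per Mb on the rest of the chromosome. Of the 97 matches in the array 15 (15.5%, 8.92 to 24.2) were at a summit, against 21.6% of the others. All 4 strict matches of the array were at a summit (39.8 to 100%), against 80.4% of the others. The 300-base RefSeq promoters on GRCm38, from 250 bases before to 50 after the gene start, were given for 107 of the receptors. Of these 2 held the motif on either strand, Olfr243 and Olfr628 (1.87%), against 5.68% of all 27025 genes with such a promoter. Each gene was counted by its best promoter. The threshold was set on shorter windows, so its 1% rate does not carry over to 300 bases. For other Olfr genes it was 3 of 821 (0.365%). Olfr243 and Olfr628 both scored 10.8, near the threshold of 10.24. Neither gene had a summit within 1000 bp.

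The beta globin genes split the receptors. These 5 genes, which encode the beta chains of haemoglobin, lay between Olfr67 and Olfr66 with a conservative summit on each side, and CTCF sites are known on both sides of this locus in red cell precursors. The windows are shown in the same way, as the pair that separates globin from receptor genes.
Olfr67 side of the globin genes, chr7:103807049-103807108, minus strand: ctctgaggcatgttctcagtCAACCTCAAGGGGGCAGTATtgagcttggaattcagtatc
Olfr66 side of the globin genes, chr7:103873240-103873299, minus strand: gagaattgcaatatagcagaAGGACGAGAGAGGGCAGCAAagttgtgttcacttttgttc
The summits stood 66.19 kb apart, and no thresholded list, nor the ranked list of both pools, had a summit between them. The one on the Olfr67 side had 290.5 in pool I, 129.2 in pool J and 421.4 for both, with a reverse motif score of 17.41. The other had 185.9, 87.0 and 272.0, and its best match, at 1.28, did not pass. Nearer to Olfr66, a further summit in the optimal (82.18) and pool I (68.67) lists had a reverse motif score of 13.36. Nearer to Olfr67, one in pool I alone (56.45) had a forward score of 17.18. None of the 5 globin genes had a promoter summit in the conservative list (0 to 52.2%), too few to set against the 20.8% of all genes.

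Another interruption, the Trim genes between Olfr649 and Olfr651, held sites that are near copies of each other. Trim genes encode tripartite motif proteins, many of them antiviral. Copies at 4 places carried the same 20-base match, and their windows are printed to show how alike they are.
Outside Trim30b, chr7:104369936-104369995, plus strand: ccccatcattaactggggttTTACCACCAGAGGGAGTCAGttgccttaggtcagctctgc
Trim30a intron, chr7:104446152-104446211, plus strand: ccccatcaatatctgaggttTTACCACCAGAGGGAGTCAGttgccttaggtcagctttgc
Upstream of Trim30a, chr7:104465259-104465318, plus strand: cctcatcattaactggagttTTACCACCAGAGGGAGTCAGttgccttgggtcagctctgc
Upstream of Trim30d, chr7:104507920-104507979, plus strand: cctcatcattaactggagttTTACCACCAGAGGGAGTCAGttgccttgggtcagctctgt
These windows shared 52 to 59 of 60 bases. The summit at Trim34a and one in Trim12a were likewise alike, at 58 of 60 bases. How reads that map to several copies were treated is not given in the sources used here, so the values at all these copies, the Trim34a promoter included, are uncertain. The treatment of such reads is equally unknown at the receptor genes, so a missing summit there need not mean a lack of binding. The Trim30a copy had 121.2 and the Trim30d copy 81.88 in the conservative list, and the copy upstream of Trim30a had 117.2 in the optimal list. The one outside Trim30b lay just upstream of that gene's 5' end and had 50.68 in pool I alone. Of 12 Trim genes, 3 (25%, 5.49 to 57.2, beside 20.8% of all genes) had a conservative promoter summit, Trim34a at 62 bp, Trim30d at 121 bp and Trim21 at 949 bp. None was found at 3 Ubqln and 5 Usp17l genes, too few to set against the background.

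The distal flank of the array held more summits than the proximal one, with overlapping intervals. Of 200 kb on each side, the proximal flank had 2 conservative summits, in introns of Stim1, or 10 per Mb (1.21 to 36.1), and the distal flank had 7, or 35 per Mb (14.1 to 72.1). The nearest site on the proximal side had 326.0 in pool I, 192.8 in pool J and 515.7 for both. The distal one had 355.4, 278.7 and 628.6, which placed it above 98.3% of conservative peaks. The first genes beyond the array, Rrm1 and Fam160a2, had no promoter summit, with the nearest at 24050 and 12015 bp. Genes of olfactory signalling and receptor choice, a list of 20, had 4 promoter summits (20.0%), near the background of 20.8%. These were Kdm1a (626.0), a histone demethylase, Bcl11b (252.6), a transcription factor, Gnal (231.6), the olfactory G protein alpha subunit, and Lbr (114.7), the lamin B receptor. Adcy3, the adenylyl cyclase of that pathway, and Ano2, a chloride channel, had none.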

How the data were processed

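CTCF ChIP-seq was measured in 4 libraries, 2 from each of pool I and pool J (fragments of 200 to 600 bp, per the labels). The authors deposited 8 peak lists on mm10, 4 thresholded by IDR and 4 ranked before that threshold, per the deposited notes. Each deposited score rescales the IDR (log2 of it times 125, sign turned), and the lowest in each thresholded list was 540. The deposited signal value is the peak caller's own, and the authors' ranked lists give the IDR as −log10. In the sources used here, aligner, peak caller and read depth are not given. The inputs of the list of both pools were matched to pools by identical intervals (84.5% and 61.8%, 0 crosswise).

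Summits were placed on the GENCODE M21 basic annotation of GRCm38.p6, whose chromosomes hold every peak. A TSS is that of any transcript, and a promoter summit lies within 1000 bp. The motif was learned from 1000 strong peaks off chromosome 7, and its scripts were tested on simulated data. Intervals are exact (95%). Named genes were those with a promoter or internal summit in any list, the first and last, the 5 next nearest, the 3 farthest, the neighbours of the strongest intergenic summits, and genes of the other lists. The members and lists were chosen with earlier results of these data known. Alternatives were other lists, windows, thresholds and references. The tools were SciPy 1.17.1, pandas 2.3.3, matplotlib 3.10.9, numpy 2.4.6 and Python 3.11.15.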

Additional observations from a re-analysis of the deposited data

How the results depend on the processing

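Of 42 alternative settings over 7 results, 30 left the value close to the main one and 12 moved it. A count of genes was taken as moved beyond 1.5 times, a density, ratio, distance or share beyond the interval of its main value, and the longest stretch, which has no interval, at any change. The count of 4 receptors with a promoter summit became 2 with a window of 500 bp, 8 with 2000 bp and 15 with 5000 bp. It became 1 with the start codon in place of the TSS. At 2000 bp the share was 6.45% of the receptors beside 26.8% of all genes, and at 5000 bp 12.1% beside 38.8%. The comprehensive annotation, chosen after seeing the data, also gave 4. The 6 receptors with a summit in the gene became 22 when 10 kb upstream was added, a setting not counted over all genes. The pool I list moved the density to 14.2 per Mb and the median distance to 26.6 kb, and it held more peaks genome-wide. In that list the autosomes had 33.4 per Mb, and the density ratio was 0.424, within its interval. Its median distance was 2.885 kb for all genes and 75.81 kb for other Olfr genes. The longest stretch became 592.6 kb in the optimal and pool J lists and 581.5 kb in the pool I list. Outside repeats the density ratio was 0.750 (0.494 to 1.09), an interval that includes 1. The strict threshold lowered the motif share to 14.8%. The remaining settings, among them an IDR of at most 0.01, moved no result. No paired analysis was possible because each result is a count or distance from lists that merge libraries. The unknown read depth limits what the lists can show, as does the unknown treatment of reads that map to several places. A missing summit means that no peak passed the IDR.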
